A study of Mus musculus with 7 samples.

Results

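The genes described here are 55 genes of DNA replication and mitosis, followed through the development of the mouse lung epithelium. They were picked by symbol from a list of cell cycle genes, and all 55 were found among the 21121 genes of the series. They divide into 28 genes that prepare or carry out DNA replication and 27 that build the spindle, separate the chromosomes or divide the cell. The series holds 7 libraries of epithelial cells sorted from lungs of C57BL/6 mice at 5 stages. The fetal stages were embryonic day 13.5 (E13.5) and E15.5 with 1 library each and E18.5 with 2, and the postnatal ones were day 14 (P14) with 1 and day 56 (P56) with 2. The sort kept propidium iodide-negative cells that carried Epcam, an epithelial surface protein, and lacked the blood and vessel proteins CD31, CD45, Ter119 and CD146.

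A cell that divides first loads the MCM helicase onto replication origins with Cdc6 and Cdt1, then activates it with Cdc45 and the GINS complex, and copies its DNA with the primase, the polymerases and the sliding clamp Pcna. The transcription factor E2f1 and the E-type cyclins drive the entry into S phase. Later, Cdk1 with cyclins A and B starts mitosis, kinesins build the spindle, the checkpoint kinases watch the kinetochores, and the anaphase-promoting complex starts chromosome separation. In the fetal lung, dividing epithelial progenitors extend and branch the airway tree, and most cells of the adult alveolar epithelium are quiescent in the healthy lung.

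Levels are scaled tag counts, the unit of the deposited values. The assay reads 1 tag near the 3' end of a transcript, so a level does not grow with transcript length, but capture near that end differs between genes and levels are compared within a gene only. The libraries held 2559927 to 3895740 reads, and 1 read was worth 0.236 to 0.385 scaled tag counts. All 5 epithelial markers (Epcam, Cdh1, Nkx2-1, Krt8 and Krt18) were detected in every library, at 0.10% to 0.25% of reads. The immune, endothelial, erythroid and ciliated marker lists took at most 0.0234% of reads each. The mesenchymal list took more, 0.285% at E13.5 and 0.152% at E15.5, mostly Vim, and 0.00926% to 0.0242% in the later libraries. At E13.5 that was above the epithelial share of 0.10%. Libraries of a stage are not stated to come from separate animals, so p-values measure the spread between these libraries alone, which may be technical. A bulk library cannot tell fewer dividing cells from less RNA per dividing cell.

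The genes were high at E13.5 and E15.5, low at E18.5, and stayed low at P14 and P56. Together they took 0.458% of reads at E13.5 and 0.419% at E15.5. The share was 0.0211% and 0.0227% in the E18.5 libraries, 0.0253% at P14, and 0.0327% and 0.0334% at P56. The summed level of the replication genes was 90.5% of its E13.5 value at E15.5, 6.36% and 7.87% at E18.5, then 8.2% at P14, and 10.5% and 11.4% at P56. For the mitosis genes it was 92.6% at E15.5, 3.04% and 2.39% at E18.5, then 3.44% at P14, and 4.02% and 3.51% at P56. By these sums both groups were lowest at E18.5, and both P56 libraries lay above both E18.5 libraries in each group. A few genes weigh heavily in a sum. At P14, Bub1 and Bub1b made up 8.25 and 13.5 of a mitosis sum of 57.5. In the E18.5 libraries they made up 2.31 and 2.695 of 50.8, and 0 and 3.01 of 39.9. Prim1 and Tk1 made up 47.8 and 37.8 of a replication sum of 267 in the first P56 library. In the first E18.5 library they made up 10.8 and 4.62 of 162. The sums without these genes were not computed.

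**Figure D1:**
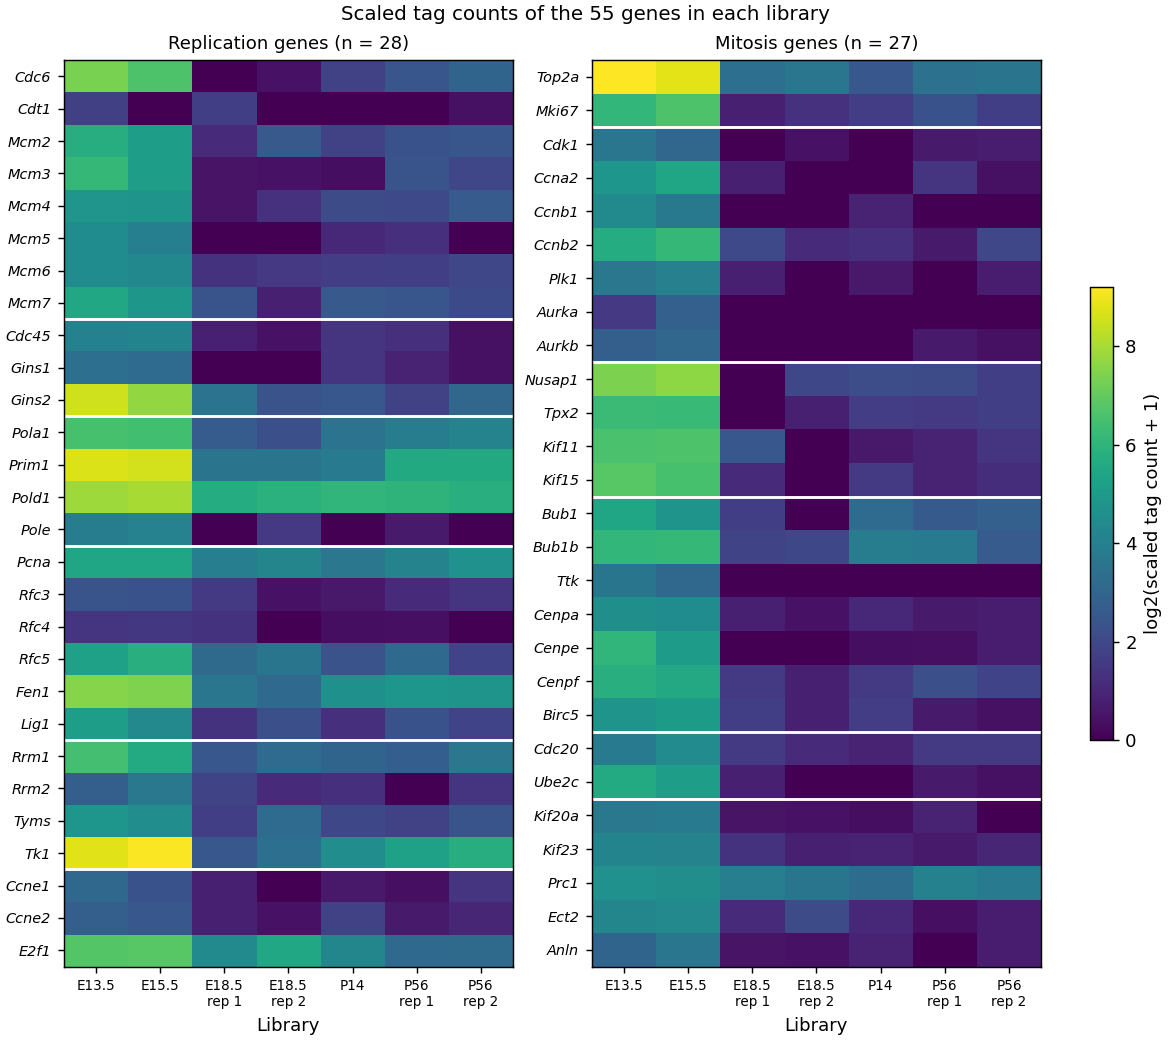
Level of each of the 55 genes in each of the 7 libraries, as log2(scaled tag count + 1) on the colour scale, with replication genes on the left and mitosis genes on the right and white lines between functional groups. The E13.5 and E15.5 columns are brighter than the other 5 for nearly all genes, with Pold1, Pcna and Prc1 among the genes that stay visible. Genes of low level, such as Cdt1 and Rfc4, are dark in every column.

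Gene by gene, the drop fell between E15.5 and E18.5. Only Mcm3 and Cdt1 were at or below 50% of their E13.5 value at E15.5, and 23 of the 55 genes were above it. At E18.5, 54 of 55 genes were at or below 50% of E13.5, the exception being Prc1 at 52.2%. The median level at E18.5 was 6.37% of E13.5 for the replication genes and 2.43% for the mitosis genes. The medians were 10.7% and 2.90% at P14, and 10.1% and 2.81% at P56, for replication and mitosis genes. These percentages describe single libraries or means of 2 libraries, and the difference between the groups was not tested.

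**Figure D2:**
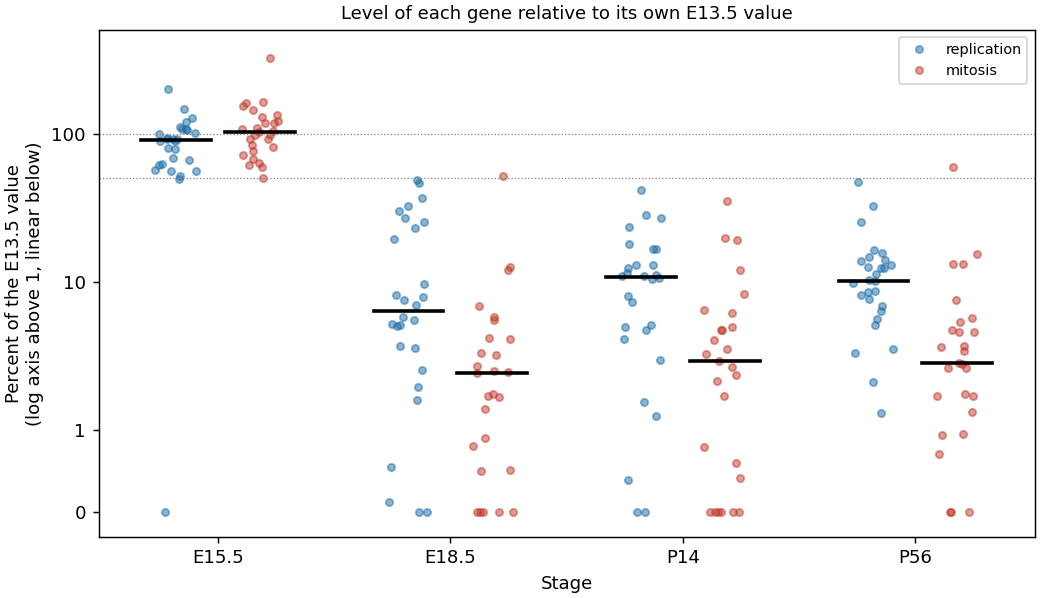
Level of each gene as a percent of its own E13.5 value (log axis above 1, linear below) at the later stages, with a point per gene and a black bar at the median. Replication genes are blue and mitosis genes red, and the points overlap. At E18.5, P14 and P56 the replication medians are 6.37%, 10.7% and 10.1%, against mitosis medians of 2.43%, 2.90% and 2.81%.

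The promoters of the 2 groups differed in the short sequence words they carried, a feature that the choice of the genes did not use. As background, E2F proteins bind sites near the starts of many S-phase genes, a CHR element (cell cycle genes homology region) marks many genes that peak in mitosis, and NF-Y binds the CCAAT box. RefSeq promoter windows of build GRCm38.p6, 250 bases before to 50 after the transcription start, were found for 46 of the 55 genes. Ccna2, Aurkb, Tpx2, Kif20a, Mcm4, Gins1, Gins2, Pole and Ccne2 were not matched. The words searched on both strands were TTTGGCGC, TTTCCCGC, TTTCGCGC and TTTGCCGC for E2F, TTTGAA for the CHR and CCAAT for the box; E2F words may overlap each other. An E2F word was present in 9 of 23 replication genes and 2 of 23 mitosis genes, against 2.32% of 27025 promoters. The CHR word was present in 3 of 23 replication genes and 18 of 23 mitosis genes, against 18.1% of all promoters. CCAAT was present in 12 of 23 replication genes and 19 of 23 mitosis genes, against 37.9%. Both CHR and CCAAT were present in 2 of 23 replication genes and 16 of 23 mitosis genes, against 7.12%. A match is a string of letters and not a shown binding site.

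Of the replication genes, Cdc6, Mcm3, Pola1 and Prim1 are printed as examples of the 6 genes called higher at P56 than at E18.5, and Mcm6 because it holds several E2F words. Each stretch has 200 bases, from 170 before the start to 30 after it, read along the gene, and capitals mark the words found. The regions are chr11:98907981-98908180 (plus strand) for Cdc6, chr1:20820283-20820482 (minus strand) for Mcm3, chr1:128359676-128359875 (minus strand) for Mcm6, chrX:93632126-93632325 (minus strand) for Pola1 and chr10:128015045-128015244 (plus strand) for Prim1. Cdc6 and Pola1 show an E2F word before the start, Mcm3 shows it after the start, and in Mcm6 an overlapping pair forms the longest run of capitals. Prim1 shows a CCAAT box and no E2F word. Of the other genes called higher at P56, which are not printed, Tk1 holds none of the words and Fen1 only the CHR word, so an E2F word is in 3 of the 6.
Cdc6: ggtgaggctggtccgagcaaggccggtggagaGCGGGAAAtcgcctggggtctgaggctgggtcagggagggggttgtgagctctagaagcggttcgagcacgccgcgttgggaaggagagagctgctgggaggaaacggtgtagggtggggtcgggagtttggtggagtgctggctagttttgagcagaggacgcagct
Mcm3: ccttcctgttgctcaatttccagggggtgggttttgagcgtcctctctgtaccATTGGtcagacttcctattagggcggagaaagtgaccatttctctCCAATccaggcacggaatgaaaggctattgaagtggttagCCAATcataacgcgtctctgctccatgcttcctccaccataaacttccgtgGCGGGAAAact
Mcm6: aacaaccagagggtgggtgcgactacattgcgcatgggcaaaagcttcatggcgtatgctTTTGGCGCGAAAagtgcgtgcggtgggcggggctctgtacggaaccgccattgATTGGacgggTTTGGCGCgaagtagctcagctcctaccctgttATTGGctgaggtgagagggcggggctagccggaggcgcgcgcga
Pola1: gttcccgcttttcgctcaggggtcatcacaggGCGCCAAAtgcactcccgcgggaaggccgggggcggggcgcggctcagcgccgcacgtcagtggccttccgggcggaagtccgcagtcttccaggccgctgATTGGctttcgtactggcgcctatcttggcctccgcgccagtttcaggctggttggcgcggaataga
Prim1: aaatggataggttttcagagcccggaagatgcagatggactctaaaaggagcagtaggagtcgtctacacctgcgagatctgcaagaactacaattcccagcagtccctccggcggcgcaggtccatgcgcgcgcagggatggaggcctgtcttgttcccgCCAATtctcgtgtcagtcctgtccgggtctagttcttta

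Of the mitosis genes, Top2a, Cdk1, Ccnb2 and Kif11 are printed as examples that hold both the CHR word and CCAAT boxes, Cdk1 with an E2F word as well. The regions are chr11:99024160-99024359 (minus strand) for Top2a, chr10:69352883-69353082 (minus strand) for Cdk1, chr9:70421525-70421724 (minus strand) for Ccnb2 and chr19:37376212-37376411 (plus strand) for Kif11. On the opposite strand the CHR word reads TTCAAA and the CCAAT box reads ATTGG. In all 4 promoters a CHR word lies close to the transcription start, with a CCAAT box before it.
Top2a: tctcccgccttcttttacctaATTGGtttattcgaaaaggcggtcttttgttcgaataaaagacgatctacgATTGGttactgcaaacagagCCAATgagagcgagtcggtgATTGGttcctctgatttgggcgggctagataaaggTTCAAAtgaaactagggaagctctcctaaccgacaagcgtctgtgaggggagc
Cdk1: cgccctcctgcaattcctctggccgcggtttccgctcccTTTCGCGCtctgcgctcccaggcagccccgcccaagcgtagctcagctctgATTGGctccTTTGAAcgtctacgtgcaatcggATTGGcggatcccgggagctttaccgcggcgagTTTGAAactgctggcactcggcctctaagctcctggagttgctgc
Ccnb2: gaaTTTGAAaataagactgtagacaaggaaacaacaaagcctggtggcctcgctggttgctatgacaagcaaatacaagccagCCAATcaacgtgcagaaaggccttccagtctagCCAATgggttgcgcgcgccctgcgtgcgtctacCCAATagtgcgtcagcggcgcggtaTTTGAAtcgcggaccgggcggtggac
Kif11: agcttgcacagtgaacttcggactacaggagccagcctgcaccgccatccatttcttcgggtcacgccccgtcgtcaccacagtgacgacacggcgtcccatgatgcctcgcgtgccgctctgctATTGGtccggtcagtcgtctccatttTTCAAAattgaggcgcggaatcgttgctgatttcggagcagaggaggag

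**Figure D3:**
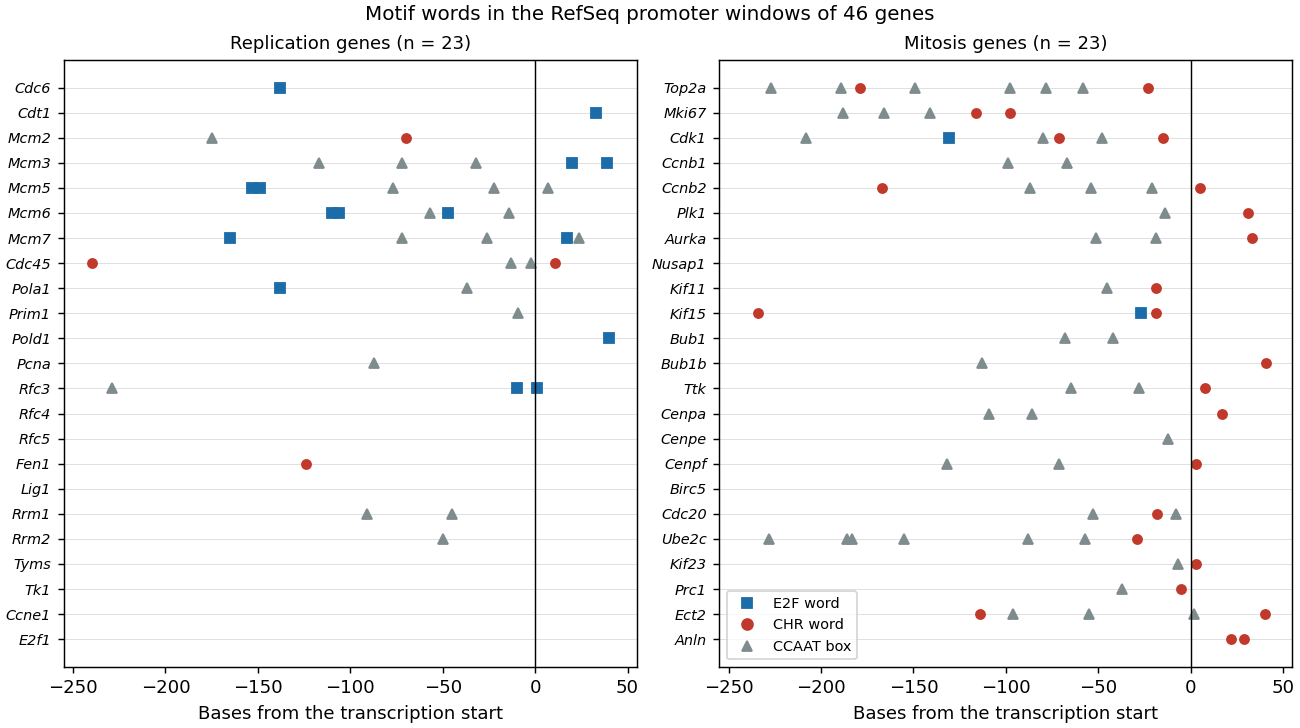
Positions of the words in the promoter windows of the 46 matched genes, in bases from the transcription start (vertical line), with blue squares for E2F words, red circles for the CHR word and grey triangles for CCAAT boxes. Squares gather among the 23 replication genes on the left (9 genes), and circles among the 23 mitosis genes on the right (18 genes), often near the start.

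E15.5 was compared with E13.5 to see which genes leave first. With 1 library at each stage there is no test across libraries, and each ratio is given with a 95% exact counting interval, which covers counting error only. By median, the origin licensing genes were the lowest group at E15.5, at 64.6% of E13.5 with Cdt1 included. The mitotic kinases and cyclins were the highest, with a median of 130%. By summed level the helicase activation genes (Cdc45, Gins1 and Gins2) were lower, at 58.4% against 64.3% for licensing. Which group was lowest thus depends on the measure. Among the 53 genes that passed a filter on low counts, a ratio at least 2-fold lower was seen in 1, Mcm3, and is found in 11.6% of all 12964 genes tested. Ratios at least 2-fold higher were seen in 2 genes, Rrm2 and Aurka, against 18.8% of all genes. The interval lay below 1 in 15 of the 53 genes and above 1 in 10, while over all genes tested the shares were 20.7% and 21.6%. Of the 53, 27 reached the filter's minimum in the E13.5 and E15.5 libraries alone, whereas other genes could pass on later libraries with few reads in these 2. The shares are thus not like for like, and nothing is drawn from their difference. Libraries of 1 stage differed by far more than counting error, with a chi-square per degree of freedom of 9.36 between the E18.5 libraries and 7.21 between the P56 libraries, where counting error alone gives about 1. The ratios below thus describe 2 libraries, and none is shown to be a difference between the stages.

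Among the tested licensing genes, the interval lay below 1 in Cdc6, Mcm2, Mcm3, Mcm5 and Mcm7 and above 1 in none. Mcm3, a subunit of the MCM helicase, had 34.8 scaled tag counts at E15.5 and 69.9 at E13.5, a ratio of 0.498 (0.391 to 0.628). Cdc6, which helps load that helicase, had 99.4 at E15.5 and 161 at E13.5, a ratio of 0.617 (0.534 to 0.710). Mcm4 and Mcm6, subunits of the same ring, had ratios of 0.994 (0.732 to 1.34) and 0.887 (0.618 to 1.26), and the interval of Mcm4 did not overlap that of Mcm3. Cdt1, the partner of Cdc6 in helicase loading, had 0 reads at E15.5 and 10 at E13.5, which is at least 2.2-fold lower with a floor of 3 reads. It did not pass the filter on low counts. Gins2, a GINS subunit, had 209 scaled tag counts at E15.5 and 376 at E13.5, a ratio of 0.556 (0.505 to 0.612).

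The nucleotide supply genes had ratios on both sides of 1. Rrm1, the large subunit of ribonucleotide reductase, had 48.1 scaled tag counts at E15.5 and 86.3 at E13.5, a ratio of 0.557 (0.454 to 0.681). Rrm2, the small subunit of the same enzyme, had 11.8 at E15.5 and 5.91 at E13.5, a ratio of 2.0 (1.16 to 3.52). Tk1, a thymidine kinase of S-phase cells, had 567 at E15.5 and 443 at E13.5, a ratio of 1.28 (1.20 to 1.37). The ratios of the reductase subunits lay on opposite sides of 1, with few reads for Rrm2.

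Among the mitosis genes, 6 intervals lay below 1 and 6 above it. Those above 1 were Mki67, Ccna2, Ccnb2, Aurka, Nusap1 and Cdc20, and those below were Top2a, Ccnb1, Kif15, Bub1, Cenpe and Ube2c. Cenpe was the lowest of the mitosis genes, at 50.4% of E13.5, close to Mcm3 at 49.8%. Mki67, the proliferation antigen Ki-67, had 98.3 scaled tag counts at E15.5 and 67.8 at E13.5, a ratio of 1.45 (1.22 to 1.72). Top2a, the topoisomerase that untangles sister chromosomes, had 454 at E15.5 and 591 at E13.5, a ratio of 0.768 (0.717 to 0.822). The ratios of these 2 common proliferation markers lay on opposite sides of 1 in these libraries. For the B-type cyclins the ratios were 1.34 (1.10 to 1.64) for Ccnb2 and 0.60 (0.391 to 0.903) for Ccnb1. Cdc20 and Ube2c both serve the anaphase-promoting complex, and their ratios were 1.63 (1.11 to 2.41) and 0.718 (0.557 to 0.920).

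**Figure D4:**
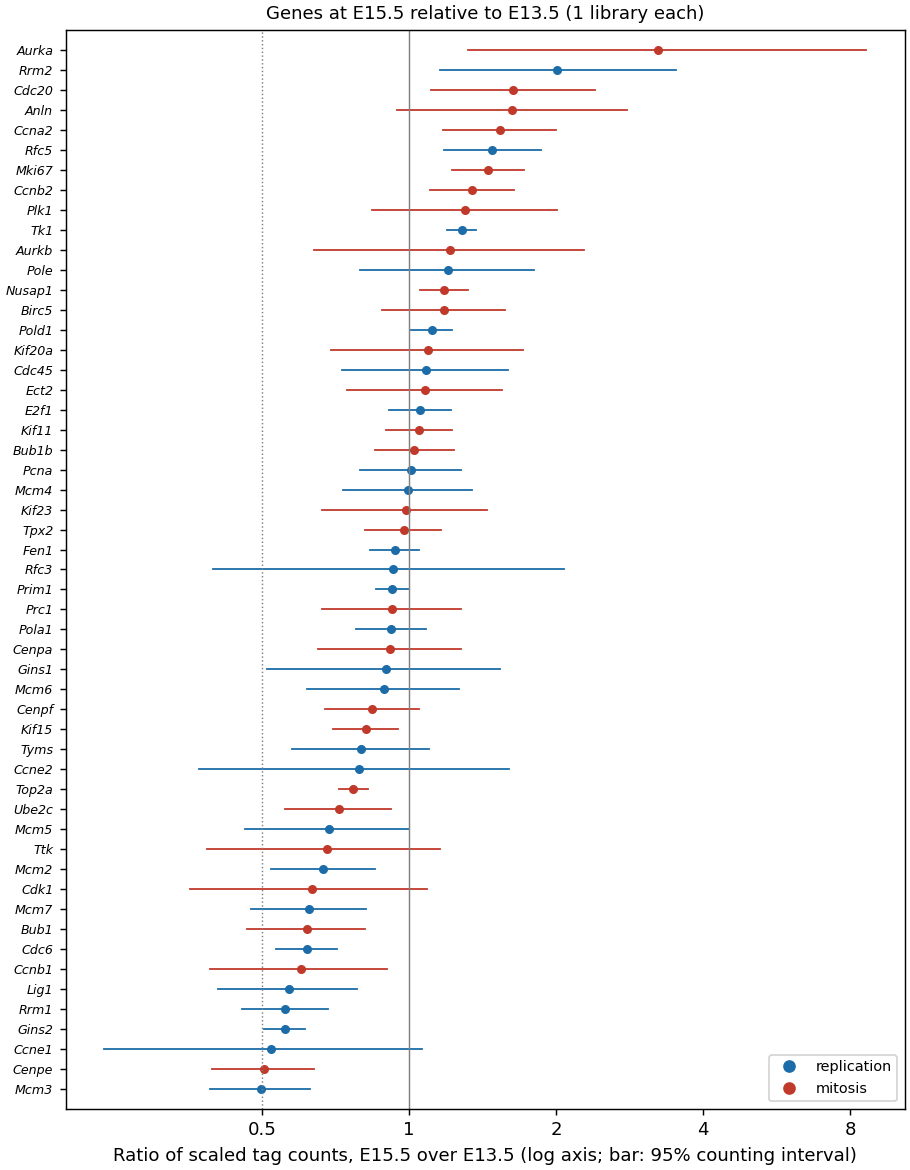
Ratio of the level at E15.5 over that at E13.5 for the 53 genes with at least 20 reads in the 2 libraries, on a log axis, with bars for the 95% counting interval, blue for replication and red for mitosis genes. Mcm3 (0.498) stands at the bottom, next to the mitosis gene Cenpe, which was at 50.4% of E13.5. Cdc6 (0.617) stands somewhat above them, among genes of several groups, and the licensing genes Mcm4 and Mcm6 stand higher. Aurka, Rrm2 and Cdc20 are at the top.

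E18.5 was compared with the mean of E13.5 and E15.5, called the early stages below, in a fit with limma over all 7 libraries. Of the 55 genes, 53 passed the filter on low counts; Cdt1 and Rfc4 did not. At a Benjamini-Hochberg adjusted p under 0.05, 50 of 53 genes were lower at E18.5 and 0 were higher. Of the 53, 27 reached the filter's minimum in the early libraries alone, so a lower level at E18.5 was built into their passing, and the count is no support by itself. Over all genes tested 13.4% were called lower and 15.8% higher. The median log2 change was -3.25 over the 26 tested replication genes and -4.07 over the 27 mitosis genes, against 0.03 over all genes. Called lower were 24 of 26 replication genes and 26 of 27 mitosis genes. With edgeR on the recovered reads the count was 49, with 25 mitosis genes, against 1676 of all 12964 genes called lower. In limma without the filter on low counts it was 32, and the share over all genes was not counted. In all 53 genes, both E18.5 libraries lay below both early libraries, which was so in either direction for 63.0% of all genes tested.

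The licensing and helicase genes nearly vanished. Cdc6 had 161 scaled tag counts at E13.5 and 99.4 at E15.5, 0 and 0.377 at E18.5, then 2.48 at P14, and 4.55 and 6.80 at P56. That is 1 read over both E18.5 libraries, a ratio to the early stages of 0.00139 (95% counting interval 3.52e-05 to 0.00778), with limma adjusted p = 5.27e-05. Mcm3 had 69.9 at E13.5 and 34.8 at E15.5, 0.385 and 0.377 at E18.5, then 0.275 at P14, and 4.27 and 2.91 at P56. The other tested MCM genes were all called lower too, with Mcm5 at 0 reads in both E18.5 libraries. Gins2 had 376 at E13.5 and 209 at E15.5, 10.4 and 4.14 at E18.5, then 4.68 at P14, and 2.56 and 7.13 at P56. Its level at E18.5 was 40.2-fold below the early mean (limma adjusted p = 0.000538), and at P56 it was not called different from E18.5 (limma adjusted p = 0.566). Cdc45, which joins MCM and GINS in the active helicase, had 15.6 at E13.5 and 16.9 at E15.5, 0.770 and 0.377 at E18.5, then 1.65 at P14, and 1.42 and 0.324 at P56. Cdt1 had 2.36 at E13.5 and 0 at E15.5, 2.31 and 0 at E18.5, then 0 at P14, and 0 and 0.324 at P56, too few reads to place its fall.

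The polymerase, clamp and maturation genes fell by unequal amounts. Prim1, the catalytic primase subunit, had 418 at E13.5 and 386 at E15.5, 10.8 and 10.5 at E18.5, then 12.4 at P14, and 47.8 and 47.0 at P56. Pola1, the catalytic subunit of polymerase alpha that extends its primers, had 91.5 at E13.5 and 84.0 at E15.5, 5.39 and 3.77 at E18.5, then 10.5 at P14, and 13.7 and 16.2 at P56. Both were far below the early stages at E18.5, by 37.7-fold for Prim1 and 19.2-fold for Pola1 (limma adjusted p = 1.63e-05 and 0.000190). Pold1, the catalytic subunit of polymerase delta, kept more, with 233 at E13.5 and 259 at E15.5, 50.4 and 57.6 at E18.5, then 65.2 at P14, and 63.2 and 55.1 at P56. It was 4.55-fold lower at E18.5 than in the early stages (limma adjusted p = 0.000493). Pcna, the sliding clamp, was the most retained of the called replication genes, with 42.8 at E13.5 and 43.1 at E15.5, 14.2 and 17.3 at E18.5, then 11.6 at P14, and 16.5 and 24.0 at P56. It was 2.72-fold lower at E18.5 (limma adjusted p = 0.0137). Both polymerase delta and its clamp also serve DNA repair.

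Fen1, which trims Okazaki fragments, had 185 at E13.5 and 173 at E15.5, 11.2 and 7.91 at E18.5, then 23.9 at P14, and 27.6 and 26.6 at P56. It was 18.8-fold lower at E18.5 than in the early stages (limma adjusted p = 9.17e-05). Rfc3, a subunit of the complex that loads the clamp, had 4.25 at E13.5 and 3.95 at E15.5, 1.93 and 0.377 at E18.5, then 0.550 at P14, and 1.14 and 1.62 at P56, and missed the threshold at limma adjusted p = 0.112. The other tested clamp and maturation genes were all called lower.

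Thymidine kinase showed the deepest fall of the nucleotide supply group. Tk1 had 443 at E13.5 and 567 at E15.5, 4.62 and 9.42 at E18.5, then 22.0 at P14, and 37.8 and 52.8 at P56. Its level at E18.5 was 71.9-fold below the early mean (limma adjusted p = 5.15e-05). Rrm1 had 86.3 at E13.5 and 48.1 at E15.5, 4.62 and 8.29 at E18.5, then 6.88 at P14, and 5.69 and 11.7 at P56. Rrm2 had 5.91 at E13.5 and 11.8 at E15.5, 2.69 and 1.13 at E18.5, then 1.38 at P14, and 0 and 1.62 at P56, and missed the threshold at E18.5 with limma adjusted p = 0.0713. Rrm1 was 10.4-fold lower at E18.5 than in the early stages (limma adjusted p = 0.00185). Both reductase subunits were still low at P56, where neither was called different from E18.5 (limma adjusted p = 0.645 for Rrm1 and 0.449 for Rrm2).

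Of the S-phase regulators, E2f1 had 106 at E13.5 and 111 at E15.5, 19.6 and 44.1 at E18.5, then 17.6 at P14, and 7.97 and 8.10 at P56. It was 3.4-fold below the early mean at E18.5 (limma adjusted p = 0.0118), and both P56 libraries were lower again. That call was lost without robust variance (adjusted p = 0.0515) and without the filter (adjusted p = 0.159, limma). Ccne2, an E-type cyclin, had 5.91 at E13.5 and 4.66 at E15.5, 0.770 and 0.377 at E18.5, then 2.48 at P14, and 0.569 and 0.972 at P56. Its call at E18.5 (limma adjusted p = 0.0211) was lost with DESeq2, at an adjusted p of 0.212.

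The mitosis genes had the lower median, and the difference between the groups was not tested. Top2a had 591 at E13.5 and 454 at E15.5, 9.24 and 11.3 at E18.5, then 4.68 at P14, and 9.96 and 10.7 at P56. Mki67 had 67.8 at E13.5 and 98.3 at E15.5, 0.770 and 1.51 at E18.5, then 2.2 at P14, and 3.98 and 2.27 at P56. At E18.5 these markers were 50.9-fold and 73.0-fold below the early mean (limma adjusted p = 2.19e-05 and 0.000215). Ccna2, the A-type cyclin, had 27.6 at E13.5 and 42.3 at E15.5, 0.770 and 0 at E18.5, then 0 at P14, and 1.71 and 0.324 at P56. Ccnb2, a B-type cyclin, had 51.5 at E13.5 and 69.3 at E15.5, 3.08 and 1.13 at E18.5, then 1.38 at P14, and 0.569 and 2.91 at P56. All 7 mitotic kinases and cyclins were called lower at E18.5 (limma).

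The spindle genes reached the lowest median, 0.705% of E13.5 at E18.5. Nusap1, which bundles spindle microtubules, had 168 at E13.5 and 198 at E15.5, 0 and 3.01 at E18.5, then 3.58 at P14, and 3.41 and 2.27 at P56. Kif15, a spindle kinesin, had 113 at E13.5 and 92.2 at E15.5, 1.16 and 0 at E18.5, then 1.93 at P14, and 0.854 and 1.3 at P56. Over both E18.5 libraries Nusap1 had 8 reads and Kif15 had 3, against 1260 and 736 in the early stages. In the kinetochore group, Bub1b, the checkpoint protein BubR1, had 68.3 at E13.5 and 70.0 at E15.5, 2.69 and 3.01 at E18.5, then 13.5 at P14, and 12.8 and 5.18 at P56. Cenpf, a kinetochore protein, had 55.1 at E13.5 and 46.3 at E15.5, 1.93 and 0.753 at E18.5, then 1.93 at P14, and 3.70 and 2.59 at P56. The P14 and P56 libraries of Bub1b lay above both of its E18.5 libraries.

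The genes that end mitosis included the gene that fell least. Cdc20, an activator of the anaphase-promoting complex, had 12.8 at E13.5 and 20.8 at E15.5, 1.93 and 1.13 at E18.5, then 0.825 at P14, and 1.99 and 1.94 at P56. Ube2c, its ubiquitin-conjugating enzyme, had 48.0 at E13.5 and 34.4 at E15.5, 0.770 and 0 at E18.5, then 0 at P14, and 0.569 and 0.324 at P56. Ect2, which starts the contractile ring, had 18.0 at E13.5 and 19.4 at E15.5, 1.16 and 3.39 at E18.5, then 1.10 at P14, and 0.285 and 0.648 at P56. Prc1, which bundles the central spindle, had 24.1 at E13.5 and 22.2 at E15.5, 14.2 and 10.9 at E18.5, then 8.53 at P14, and 15.4 and 13.3 at P56. Its E18.5 level was 1.84-fold below the early mean and not called (limma adjusted p = 0.0772). The next highest mitosis gene at E18.5 was Ect2, at 12.7% of E13.5, against 52.2% for Prc1. Exons of Prc1 share bases with Rccd1, a gene of the opposite strand, which had at most 3.85 scaled tag counts in any library.

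The remaining 27 genes are summarised here, with some named after their values were seen. Except Rfc4, which was not tested, all of them were called lower at E18.5 (limma). In 7 genes both E18.5 libraries held 0 reads, and with a floor of 3 reads over the stage their levels were at least 6.24-fold (Aurka), 11.2-fold (Aurkb), 15.5-fold (Gins1), 17.0-fold (Ttk), 29.9-fold (Ccnb1), 32.9-fold (Mcm5) and 93.0-fold (Cenpe) below the early stages. Another 7 of the 27 had 1 to 3 reads over both E18.5 libraries. The depth thus does not show how far below these bounds such genes fell.

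Some measured features of the libraries moved with the E18.5 fall. All 12 mesenchymal markers were in the files, and their summed share of reads was 0.0239% and 0.0242% at E18.5, against 0.285% at E13.5 and 0.152% at E15.5, with 2 and 3 markers at 0 at E18.5 and 3 and 2 in the early libraries. Vim alone had 10852 of the 11105 mesenchymal reads at E13.5. Without Vim the share was 0.0130% and 0.0115% at E18.5, against 0.00649% at E13.5 and 0.0218% at E15.5. The part of mesenchymal cells in the result was not tested. Epithelial markers took 0.208% and 0.25% of reads at E18.5, against 0.10% at E13.5 and 0.199% at E15.5.

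Gene overlap limits some single values. Exons of 18 of the 55 genes share bases with another gene of the GENCODE vM21 annotation (GRCm38), 17 of them with a gene on the opposite strand. Whether the counting used strand is not stated in the sources used here, so tags from such a pair cannot be told apart. Of the 50 genes called lower at E18.5, 34 share no exon bases.

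P14 was compared with E18.5 to look for an early return after birth. No gene was called in either direction by limma, 0 higher and 0 lower of 53, against 1.87% and 1.24% of all genes. At an unadjusted p under 0.05, 7 genes were higher (Cdc6, Pola1, Fen1, Tk1, Tpx2, Bub1 and Bub1b) and 1 was lower (Top2a). Over all 12964 genes tested, 1426 were higher and 964 lower at that threshold, so the 7 are no support for a return by themselves. Tk1 had 22.0 scaled tag counts at P14, against 4.62 and 9.42 at E18.5, a log2 change of 1.59 (SE 0.42, limma adjusted p = 0.103). It was called by edgeR (adjusted p = 0.0422) and DESeq2 (adjusted p = 0.0206) on the recovered reads. Bub1, a spindle checkpoint kinase, had 8.25 at P14, against 2.31 and 0 at E18.5 (log2 change 2.35, SE 0.71, limma adjusted p = 0.138). Its partner Bub1b had 13.5 at P14, against 2.69 and 3.01 (log2 change 1.91, SE 0.52, limma adjusted p = 0.109). P14 rests on 1 library, in which immune markers took 0.00304% of reads, against 0% and 0.00142% at E18.5. Endothelial markers took 0.0209%, most of it Esam, and without Esam 0.000550%, against 0.000535% and 0.00110% at E18.5. The part of either marker list was not tested. For the edgeR fits given next, the share of all genes called was not counted. In edgeR fits without 1 of the E18.5 libraries 4 genes were called higher and 1 lower in each fit. Bub1b was higher in both, and the lower gene was E2f1 without the first E18.5 library (adjusted p = 0.00938) and Kif11 without the second (adjusted p = 0.0198).

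P56 was compared with E18.5 with 2 libraries on each side. Of 53 genes tested, 6 were higher at P56 and 1 was lower by limma, against 8.07% and 6.15% of all genes, and the share of these genes called higher was thus near the background. All 7 were replication genes, which makes 6 higher and 1 lower of 26, while of 27 mitosis genes 0 were called either way. At an unadjusted p under 0.05, 3 mitosis genes (Tpx2, Bub1 and Bub1b) were higher and 0 were lower, against 2182 and 1600 of all 12964 genes tested. With edgeR on all libraries 0 mitosis genes were called. In edgeR fits without 1 library mitosis genes were called, as given below. Of the 27 mitosis genes, 24 and 25 had fewer than 10 reads in the E18.5 libraries, and 20 and 23 in the P56 libraries. With so few reads, the lack of calls cannot show that the mitosis genes stayed unchanged. The difference between the groups was not tested. The median log2 change was 0.38 over the replication genes and 0.12 over the mitosis genes, against 0.06 over all genes.

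Tk1, at chr11:117815526-117826092 (minus strand) on GRCm38, as are the positions below, rose most on the log2(value + 1) scale. It averaged 45.3 ± 10.6 scaled tag counts at P56 and 7.02 ± 3.39 at E18.5 (SD, n = 2 each), a log2 change of 2.58 (SE 0.34, limma adjusted p = 0.00364). Cdc6, at chr11:98907801-98923940 (plus strand), averaged 5.68 ± 1.59 at P56 and 0.188 ± 0.266 at E18.5, with 37 reads over the P56 libraries and 1 over the E18.5 libraries. Its log2 change was 2.49 (SE 0.39, limma adjusted p = 0.00696). Prim1, at chr10:128015168-128030037 (plus strand), averaged 47.4 ± 0.597 at P56 and 10.7 ± 0.163 at E18.5, and its libraries differed little within each stage. Its log2 change was 2.05 (SE 0.22, limma adjusted p = 0.00143).

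Mcm3, at chr1:20802968-20820312 (minus strand), averaged 3.59 ± 0.957 at P56 and 0.381 ± 0.00582 at E18.5, with 24 and 2 reads over the stages (log2 change 1.72, SE 0.42, limma adjusted p = 0.0350). The ratio of its pooled reads was 9.55 (95% counting interval 2.37 to 83.3), and DESeq2 did not call it (adjusted p = 0.0822). Pola1, at chrX:93304767-93632155 (minus strand), averaged 14.9 ± 1.79 at P56 and 4.58 ± 1.15 at E18.5 (log2 change 1.52, SE 0.30, limma adjusted p = 0.0174). Fen1, at chr19:10199132-10204169 (minus strand), averaged 27.1 ± 0.739 at P56 and 9.54 ± 2.30 at E18.5 (log2 change 1.43, SE 0.26, limma adjusted p = 0.0130). In these 6 genes both P56 libraries lay above both E18.5 libraries. The libraries of the 2 stages lay apart, in either direction, in 56.6% of all genes tested and in 41.5% of the 53 genes. The 6 were picked by a call on these same libraries, so their separation is no support by itself. Their P56 means were still 3.52% (Cdc6) to 16.3% (Pola1) of E13.5.

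E2f1, at chr2:154559407-154569892 (minus strand), went the other way. It averaged 8.03 ± 0.0913 at P56 and 31.9 ± 17.3 at E18.5, a log2 change of -1.76 (SE 0.38, limma adjusted p = 0.0239). The E18.5 libraries differed by more than 2-fold, and both lay above both P56 libraries. Without limma's robust variance the call was lost (adjusted p = 0.0935). E2f1 was thus lowest at the stage where 6 replication genes were higher than at E18.5.

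**Figure D5:**
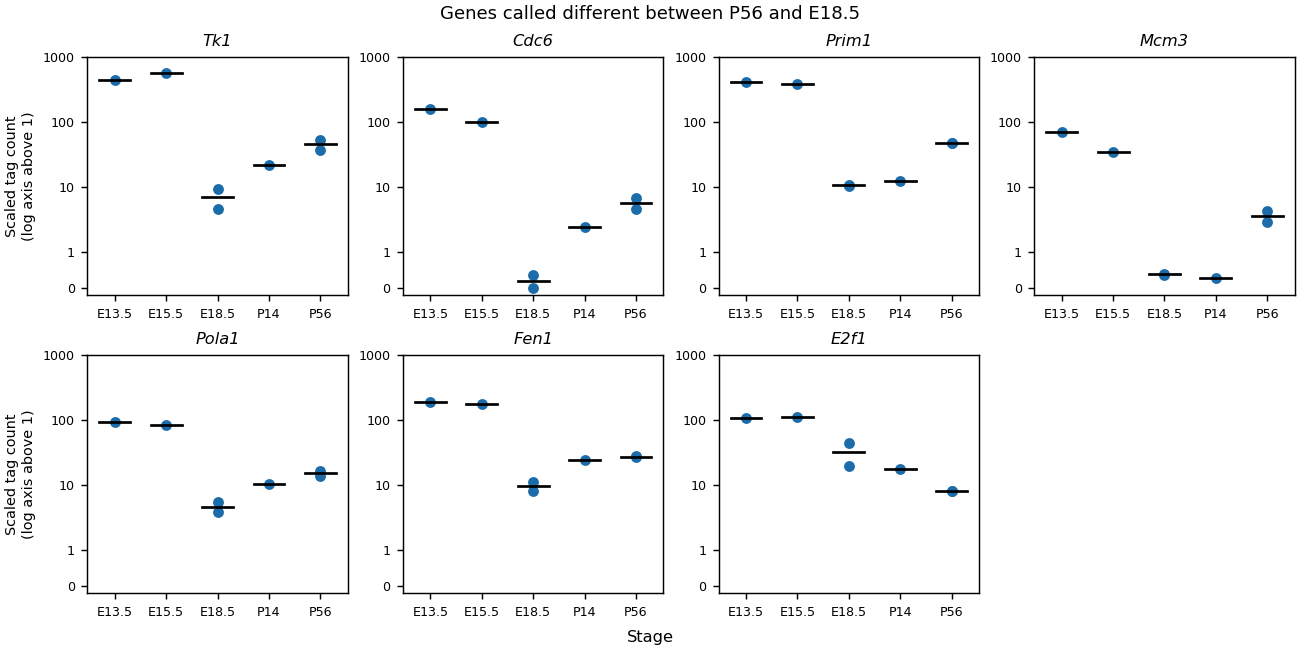
Scaled tag count (log axis above 1, linear below) in each library by stage for the 7 genes called different between P56 and E18.5 by limma, with a point per library and a bar at the stage mean. Tk1, Cdc6, Prim1, Mcm3, Pola1 and Fen1 are lowest at E18.5 or P14 and higher at P56, and E2f1 steps down to 8.03 at P56.

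Tk1 and Fen1 share exon bases with genes on the opposite strand, which leaves 4 genes called higher that share none. Afmid, which overlaps Tk1, had 4.55 and 3.24 scaled tag counts at P56 and 0.385 and 6.03 at E18.5. Tmem258, which overlaps Fen1, had 388 and 535 at P56 and 216 and 143 at E18.5, so the neighbour of Fen1 was higher too, and what part of the Fen1 tags it could hold was not tested. Markers of other cells took small shares. Immune markers, 8 of 11 in the files, took 0.000446% and 0.000620% of reads at P56 and 0% and 0.00142% at E18.5. Mesenchymal markers took 0.0139% and 0.00926% at P56 and 0.0239% and 0.0242% at E18.5, lower at P56. Endothelial markers took 0.0190% and 0.0234% at P56 and 0.00974% and 0.0106% at E18.5, most of it Esam, and without Esam 0.000613% and 0.000341% at P56 and 0.000535% and 0.00110% at E18.5. Their part in the rise of the 6 genes was not tested.

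Leaving out 1 E18.5 or P56 library left limma 1 residual degree of freedom and 0 calls. In edgeR fits on the recovered reads without 1 library, 5 to 10 genes were called higher, and E2f1 remained lower in all 4 of them. Cdc6, Prim1, Pola1, Fen1 and Tk1 were called higher in all 4, and Mcm3 in all but the fit without the first P56 library (adjusted p = 0.0824). Mitosis genes were called higher in 3 of the 4 fits. Bub1b was called without the first E18.5 library (adjusted p = 0.0451), without the second (0.0367) and without the second P56 library (0.00799). Bub1 was called without the first E18.5 library, and Nusap1 and Tpx2 without the second, while Ect2 was lower without the first and Kif11 without the second. The shares of all genes called in these fits without 1 library were not counted, so nothing is drawn from the numbers called in them. Without the filter on low counts limma called Prim1 alone.

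Between the postnatal stages 1 gene differed. Prim1 had 47.8 and 47.0 scaled tag counts at P56 and 12.4 at P14, a log2 change of 1.85 (SE 0.27, limma adjusted p = 0.0307), and was the only one of 53 genes called higher, against 0.123% of all genes. The call was lost without robust variance (limma adjusted p = 0.130). None was called lower (0 of 53 by limma and edgeR, 0 at an unadjusted p under 0.05), against 0.694% of all genes. Only limma without the filter on low counts called Ccnb1 lower, with 3 reads at P14 and 0 in both P56 libraries. Mcm3 had 4.27 and 2.91 at P56 and 0.275 at P14, with limma adjusted p = 0.234. The P14 library of Prim1 thus lay near the E18.5 libraries at 10.8 and 10.5, whereas that of Fen1, 23.9, lay near the P56 libraries at 27.6 and 26.6. Because P14 and P56 are set against the same E18.5 libraries, these steps share their baseline.

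After birth no gene was called above its early level. At P14, 46 of 53 genes were lower than in the early stages by limma, 21 replication and 25 mitosis genes, and 0 were higher, against 7.94% and 13.1% of all genes. Not called were Gins1, Rfc3, Rrm2, Ccne1, Ccne2, Aurka and Bub1. At P56, 50 of 53 were lower, 24 replication and 26 mitosis genes, and 0 were higher, against 15.0% and 19.3% of all genes. Of the 53, 27 reached the filter's minimum in no E18.5, P14 or P56 library. A lower level at P14 and P56 was thus built into their passing, and the counts at both stages are no support by themselves. Not called were Rfc3, Ccne1 and Prc1, with limma adjusted p = 0.168, 0.0501 and 0.138. The highest share of E13.5 kept at P56 was 59.4% in Prc1, followed by 47.3% in Pcna.

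Further genes of the same processes, from lists of 43 replication and 57 mitosis genes beside these 55, are counted here. They too could pass the filter through the early libraries alone, and how many did was not counted. Their counts below the early stages are thus no support by themselves. Of 41 further replication genes tested, 37 were lower at E18.5 than in the early stages and 0 were higher by limma, against 13.4% and 15.8% of all genes. Dscc1, a subunit of an alternative clamp loader, had 2.31 and 1.51 scaled tag counts at E18.5, against 66.4 at E13.5 and 74.6 at E15.5 (limma adjusted p = 0.000185). Of 51 further mitosis genes tested, 46 were lower and 1 was higher, against the same shares of all genes. Spc24, a kinetochore protein, had 56.2 and 59.9 at E18.5, against 711 at E13.5 and 676 at E15.5, and Ncapd2, a condensin subunit, had 49.3 and 32.4, against 884 and 914 (limma adjusted p = 4.10e-05 and 5.17e-05). The gene that rose was Cdc25b, a phosphatase that activates Cdk1, with 26.6 and 40.7 at E18.5, against 11.1 at E13.5 and 24.0 at E15.5 (limma adjusted p = 0.0499).

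At P14 against E18.5, 1 further replication gene and 1 further mitosis gene were lower and 0 were higher, against 1.24% and 1.87% of all genes. They were E2f7, a repressor of E2F targets, with 0.275 at P14 against 56.6 and 51.6 at E18.5 (limma adjusted p = 0.000813), and Cit, the citron kinase of cytokinesis, with 11.3 at P14 against 60.8 and 88.2 (limma adjusted p = 0.0108). At P56 against E18.5, 3 of 41 further replication genes were higher and 2 were lower, near the 8.07% and 6.15% of all genes. Among those higher, Slbp, the histone mRNA-binding protein, had 86.8 and 65.7 at P56, against 41.2 and 30.1 at E18.5 (limma adjusted p = 0.0326), and Timeless, a replication fork protein, had 2.56 and 1.94, against 0 and 0 (0.0418). E2f7 had 5.12 and 4.53 at P56, against 56.6 and 51.6 at E18.5 (limma adjusted p = 0.000473), and E2f2 had 5.41 and 5.51, against 15.4 and 23.0 (0.0222). Thus E2f1, E2f2 and E2f7 were all lower at P56 than at E18.5. E2f8, with few reads, was not, at 0 and 0.97 at P56 against 0 and 0.75 at E18.5.

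Of the 51 further mitosis genes, 2 were higher at P56 than at E18.5 and 2 were lower, below the 8.07% and 6.15% of all genes. Pttg1, the securin that restrains separase, had 14.8 and 21.7 at P56, against 5.78 and 3.01 at E18.5 (limma adjusted p = 0.0249), and Kif18a, a spindle kinesin, had 2.56 and 3.56, against 0.385 and 0 (0.0405). Cit had 20.2 and 16.8 at P56, against 60.8 and 88.2 at E18.5 (limma adjusted p = 0.00428), and Smc4, a condensin subunit, had 53.8 and 59.6, against 104 and 98.0 (0.0308). At P56 against P14, E2f7 was the only further gene called, against 0.123% of all genes higher and 0.694% lower, with 5.12 and 4.53 at P56 against 0.275 at P14 (limma adjusted p = 0.0346). Against the early stages, 27 of 41 further replication and 45 of 51 further mitosis genes were lower at P14, and 35 and 49 at P56, with 0 higher at either stage, against 7.94% of all genes lower at P14 and 15.0% at P56.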

How the data were processed

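The authors deposited 1 table per library with a signal per gene: tag counts divided by 1 factor per library, as read from the values, since 100% of genes gave whole reads within 0.01 reads. The submitters' processing notes name mm10 as the build, and as tools R 3.4.0 and Bowtie2 2.2.5. The counting program, its annotation and strand rule, and the scaling method are not given in the sources used here. Per the labels' protocols, amplified polyadenylated RNA went into 3' SAGE libraries for an Ion Proton sequencer, so reads that copy 1 molecule may be counted more than 1 time, and intervals cover counting error only.

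Genes with too few recovered reads were removed with filterByExpr by stage (minimum count 10), which left 12964 genes. Main tests used limma-trend with robust variance on log2(value + 1), a single fit of all 7 libraries by stage, 2 residual degrees of freedom and Benjamini-Hochberg adjustment over all genes tested. The pseudocount of 1 pulls changes of genes with few reads towards 0. Stages with 1 library were assumed to vary like the others. The scripts were tested on simulated data. The count tests edgeR and DESeq2 on recovered reads, other scalings, pseudocounts, filters, a replicate block and left-out libraries were alternatives. Promoter words were read from RefSeq windows, the first listed for each gene, and gene positions from GENCODE vM21.

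The members, the further gene lists and the tests were chosen with earlier results of these data known. Given in every library are the 2 members with the highest mean in each functional group, and members called at P14 or P56 against E18.5 or between P56 and P14. The same holds for members at a ratio of 0.5 or less at E15.5 and for tested members not called at E18.5. For the further lists the rule names the 2 genes with the smallest p in each comparison; not all of those are reported here, and some others were named after their values were seen. The tools were Python 3.11.15 with scipy 1.17.1 and matplotlib 3.10.9, and DESeq2 1.42.0, edgeR 4.0.16 and limma 3.58.1 in R 4.3.3.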

Additional observations from a re-analysis of the deposited data

How the results depend on the processing

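Direction was checked gene by gene for the 28 members picked by the naming rule above. The check covered E18.5 against the early stages, and their limma calls at P56 against E18.5 and against P14. In these the direction was the same in all alternatives run, and no call reversed. Other calls were not checked by gene. Scaling by total reads moved the median log2 change of all genes from 0.03 to -0.11 at E18.5 against the early stages and from 0.04 to -0.10 at P56 against them; the members' counts were then 51 and 51, against 50 and 50. Without the filter on low counts the numbers called were 32 at E18.5, 21 at P14 and 31 at P56 against the early stages, and 1 for P56 against E18.5 (Prim1); the cause was not tested. For P14 against E18.5, edgeR called 1 gene, DESeq2 called 1 gene (Tk1 in both) and the fit without a filter 1 gene (Ccnb1), against 0. Ccnb1 had 3 reads at P14 and 0 in each E18.5 and P56 library. The fit without a filter also called it lower at P56 than at P14 (limma adjusted p = 0.0425). The P56 against P14 call (Prim1) went to 0 without robust variance and to 0 with the replicate block. At 1.5-fold in place of 2-fold, 12 members were lower at E15.5 than at E13.5, against 2.

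With each library left out in turn, the members called ranged from 0 to 50 for E18.5 (46 and 49 by limma without the E13.5 and the E15.5 library), from 36 to 44 for P14 and from 0 to 47 for P56 against the early stages. They ranged from 0 to 4 for P14 against E18.5, from 0 to 10 for P56 against E18.5 and from 0 to 1 for P56 against P14. Shares of all genes called with a library left out were not counted. The counts of 0 against the early stages and for P56 come from limma with 1 residual degree of freedom. In the same fits edgeR called 50 and 47 at E18.5 against the early stages, 45 and 47 at P56 against them, and 5 to 10 for P56 against E18.5, the 10 without the second E18.5 library.

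The replicate numbers are not stated to pair libraries, and same-numbered libraries did not deviate together (r = -0.037 over 6807 genes). With the replicate block the counts were 45, 42 and 46 against the early stages in stage order, 0 for P14 and 4 for P56 against E18.5. Mcm3 (adjusted p = 0.0849), Pola1 (0.0614) and E2f1 (0.0604) were the P56 calls lost. Depth limits the later stages, where 20 to 25 of the 27 mitosis genes had fewer than 10 reads in a library.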
